A study of Mus musculus with 12 samples.

Results

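Ldha, Eef2, Mat2a, Mrfap1 and Ngfrap1 gave some of the most abundant mRNAs among those listed as enriched in a Mirlet7d pull-down. Levels of mRNAs outside that list are not known here. They were chosen by their measured level, a pull-down value over 70 RPKM (reads per kilobase of transcript span, scaled to the reads of the library), and hold 7 of the 1964 transcript rows and 5 of the 1509 genes in the deposited list of enriched mRNAs. Of all genes in that list 6, or 0.398%, passed this limit. Just inside the limit lay the Mrfap1 row at 110 RPKM and both Ngfrap1 rows at 74.6 and 73.0 RPKM, and just outside it Mrpl33 at 43.4 RPKM and the Sfi1 rows at 40.9 RPKM each.

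The cells were MLE-12, a mouse lung epithelial line that carries the SV40 large T antigen, and the series has 12 samples with 1 library in each group. The pull-down and its input share a treatment in the labels: transfection with a biotinylated form of the let-7 microRNA Mirlet7d at 25 nM and harvest at 48 h. RNA held by streptavidin beads was sequenced beside an input RNA library without capture, both after depletion of rRNA and pre-amplification. The design text names RNAs of the nucleus as the target, and the labels give total RNA as the extracted material. ChIRP-seq is an assay that captures chromatin with biotinylated probes against an RNA, here 150 pmol of probes against mature Mirlet7d. The tables analysed hold the pull-down with its input and the ChIRP-seq peaks, and no capture with another microRNA was analysed here, so capture through Mirlet7d and capture without it cannot be told apart. Nothing below has a replicate error, because each library stood alone.

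MicroRNAs guide Argonaute proteins to RNAs by pairing, and the seed near the 5′ end contributes most to target choice. Members of the let-7 family share their seed and are known as brakes on proliferation, while the series is about a complex that acts in epigenetic silencing. The labels do not say which arm of Mirlet7d the oligonucleotide carried, so both mature arms are shown, as bait of the experiment, from RefSeq (GRCm38.p6, chr13:48536078-48536099 and chr13:48536024-48536045, minus strand). Capitals mark the seed, bases 2 to 8.
mmu-let-7d-5p: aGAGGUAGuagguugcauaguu
mmu-let-7d-3p: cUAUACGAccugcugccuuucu

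The mRNAs of these genes were high in the input as well as in the pull-down. Their input values held the ranks 1 to 7 among all 1964 rows, and their pull-down values held 7 of the ranks 1 to 8. For comparison, the median row of the list had 0.014 RPKM in the input and 0.138 RPKM in the pull-down. Counted on the longest row of each gene, the 5 genes took 0.513% of the input reads and 2.17% of the pull-down reads. These shares are of the read totals recovered from the mRNA values. The ncRNA values of the same libraries were scaled to smaller totals. RPKM is given per base of the genomic span with introns, so a short gene with few introns is favoured. The 7 spans ran from 1659 to 9788 bases, against a median of 25833 bases in the list, and between 1.83% and 23.4% of all rows were shorter.

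**Figure D1:**
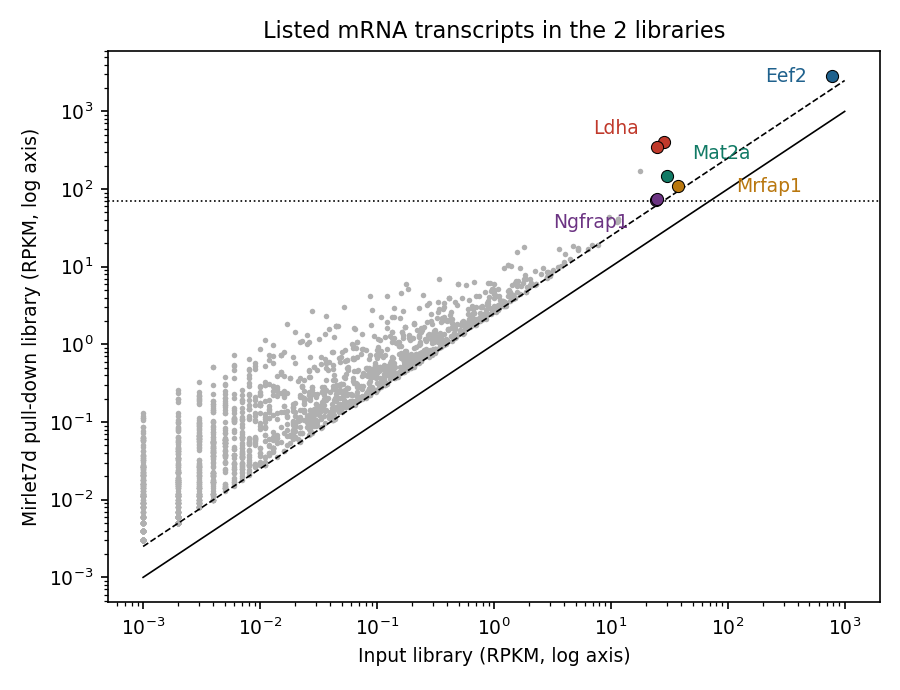
Each point is a listed mRNA transcript, with its RPKM in the input library on the horizontal log axis and in the pull-down library on the vertical log axis; coloured points are rows of the 5 genes and grey points all others. The dotted line marks 70 RPKM, the dashed line a fold of 2.5 and the solid line equal values, and the coloured points sit in the upper right corner between 73.0 and 2874 RPKM.

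Eef2, translation elongation factor 2, the GTPase that moves the ribosome along the mRNA, was the most abundant of the listed mRNA entries in both libraries. Its transcript ENSMUST00000047864.9 lies on chromosome 10 from 80639376 to 80645252 (mm9). It had 778 RPKM in the input (95% counting interval 774 to 783, from 109093 reads) and 2874 RPKM in the pull-down (2867 to 2880, from 709546 reads). The fold in the authors' deposited table was 3.69, with a counting interval of 3.67 to 3.72. These intervals cover counting error only, since PCR copies and differences between cultures are not in them. Of the read totals behind the mRNA values, Eef2 alone took 0.457% in the input (exact binomial interval 0.455 to 0.460%) and 1.69% in the pull-down (1.68 to 1.69%). In RefSeq the small nucleolar RNA gene Snord37 lies within Eef2, and a pseudogene, Eef2-ps2, carries its name, so reads of these sequences could be counted with it.

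Ldha, the lactate dehydrogenase subunit that turns pyruvate into lactate at the end of glycolysis, had the highest fold of the 5 genes. Transcript ENSMUST00000005051.4 on chromosome 7 from 54102501 to 54110996 had 28.5 RPKM in the input and 402 RPKM in the pull-down, from 5780 and 143349 reads. ENSMUST00000048209.9, which starts upstream at 54101209 and ends at 54110997, had 24.8 and 351 RPKM, from 5788 and 144487 reads. Folds of both rows were alike, 14.08 (13.7 to 14.5) and 14.17 (13.8 to 14.5), which is no independent repeat because nearly all reads are shared. In the input, Ldha stood below Mrfap1 and Mat2a, and in the pull-down it was second to Eef2. In RefSeq the long non-coding RNA gene Gm39011 overlaps Ldha, and 3 pseudogenes are named after Ldha. Reads shared with any of these cannot be separated here.

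Mat2a, the catalytic subunit of the methionine adenosyltransferase that makes S-adenosylmethionine outside the liver, had the second fold. Its transcript ENSMUST00000059472.8 on chromosome 6 from 72382793 to 72389552 had 30.1 RPKM in the input (29.2 to 30.9, 4848 reads) and 148 RPKM in the pull-down (146 to 149, 41938 reads). The deposited fold was 4.91 (4.77 to 5.06), which sits at the median of all listed rows, 4.93. In RefSeq the protein-coding gene Ggcx and the long non-coding RNA gene Particl, which is known from the promoter of Mat2a, both overlap this gene.

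Mrfap1 and Ngfrap1 had the lowest folds of the group. Mrfap1 encodes a small protein that binds the chromatin factors MRG15 and MORF4-like proteins, and its transcript ENSMUST00000068795.3 lies on chromosome 5 from 37186106 to 37188011. It had 37.2 RPKM in the input (1690 reads) and 110 RPKM in the pull-down (8843 reads), a fold of 2.97 (2.82 to 3.13). Ngfrap1, now named Bex3, encodes an adaptor of the p75 neurotrophin receptor and was listed with ENSMUST00000113112.1 and ENSMUST00000053540.4 on chromosome X. The first, from 132804844 to 132806503, had 24.9 RPKM in the input (986 reads) and 74.6 RPKM in the pull-down (5204 reads), a fold of 3.0 (2.80 to 3.21). The second, from 132804800 to 132806517, had 24.2 RPKM (992 reads) and 73.0 RPKM (5266 reads), a fold of 3.01 (2.82 to 3.23). Intervals of Mrfap1 and both Ngfrap1 rows overlap widely.

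Ordered by pull-down level, the genes ran Eef2, Ldha, Mat2a, Mrfap1 and Ngfrap1, and no counting intervals of neighbouring genes overlapped. The input order was Eef2, Mrfap1, Mat2a, Ldha and Ngfrap1. There the intervals of Mat2a (29.2 to 30.9 RPKM) and the shorter Ldha row (27.8 to 29.3) met narrowly, and those of the longer Ldha row (24.2 to 25.4) and both Ngfrap1 rows (23.4 to 26.5 and 22.7 to 25.8) overlapped. The longer Ldha row thus had an input level within the Ngfrap1 intervals and a pull-down level of 351 against 74.6 RPKM, while the input of the shorter Ldha row lay above those intervals.

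**Figure D2:**
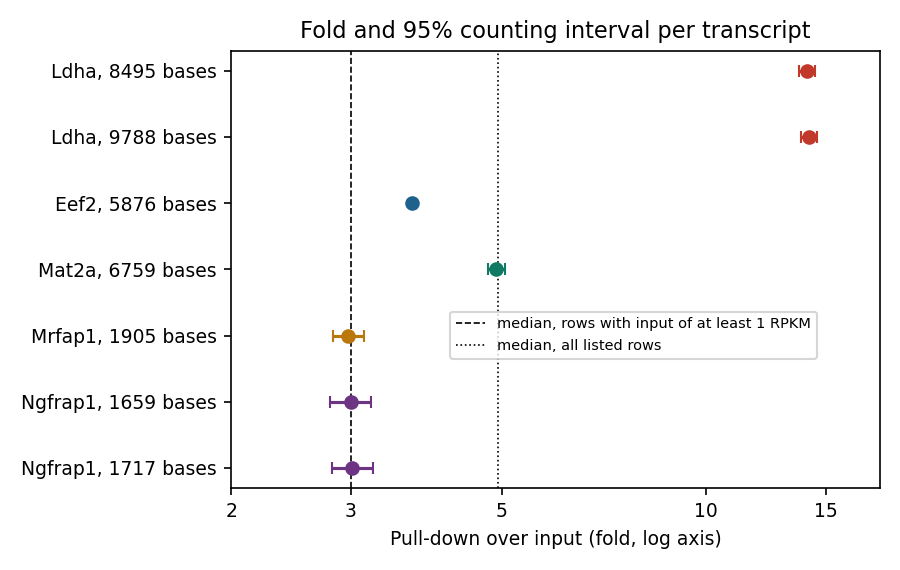
Points show the fold of pull-down over input for each row, calculated from recovered reads, on a log axis; bars are 95% exact counting intervals. Dashed and dotted lines mark the medians of listed rows with an input of at least 1 RPKM (3.0) and of all listed rows (4.93). Both Ldha rows lie near 14, and the Mrfap1 and Ngfrap1 bars cover the dashed line.

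Against all listed genes a fold over 10 was common, with 398 of 1509 genes or 26.4%, and 1 of the 5 genes, Ldha, had it. Most of these high folds came with very low input. Among the 95 genes with an input of at least 1 RPKM, Ldha was the one past 10, or 1.05%, and from 0.5 RPKM upwards (224 rows) its 14.17 was the highest fold. Apoe, an apolipoprotein gene, had the highest fold, 34.3, among the 553 rows with at least 0.1 RPKM. The median fold fell from 4.93 over all rows to 3.35 at 0.1 RPKM or more and to 3.0 at 1 RPKM or more. These sets include 10 rows of 9 genes listed with an input of exactly 1 RPKM, which may be a substituted value. Without them Ldha was 1 of 86 genes, or 1.16%, and the median was 2.995. Divided by the median of 3.0, the folds were 4.69 and 4.72 for Ldha, 1.64 for Mat2a, 1.23 for Eef2, 1.00 for each Ngfrap1 row and 0.99 for Mrfap1. The list holds only folds of 2.5 and more, so this median is that of listed rows and not of all mRNAs. Because the rule used the pull-down values, these folds describe the genes and test nothing.

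**Figure D3:**
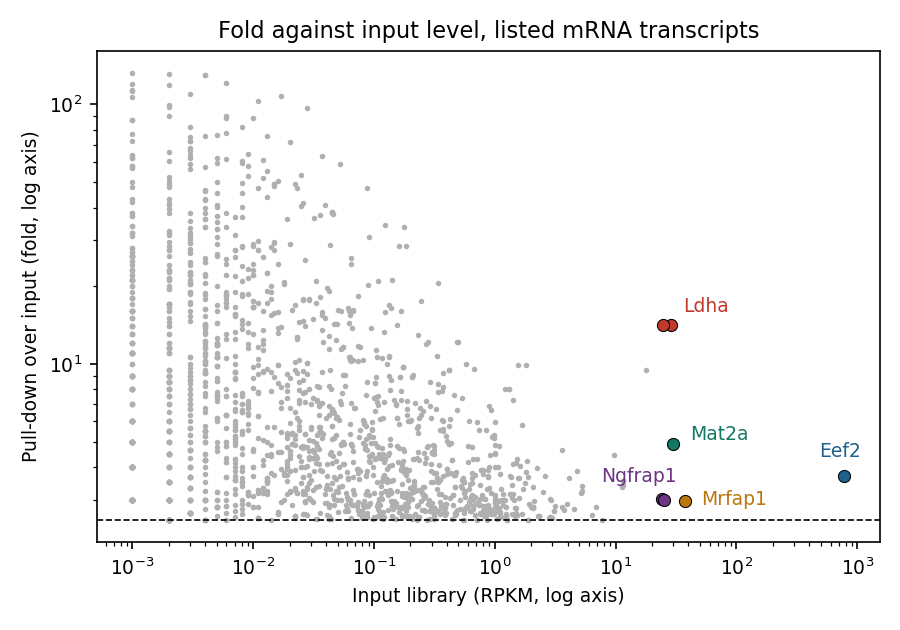
Fold of pull-down over input is plotted against input RPKM for every listed mRNA transcript, both on log axes, with the 5 genes in colour and the lowest listed fold of 2.5 dashed. The grey cloud narrows towards low folds as the input rises, and both Ldha rows (14.08 and 14.17) stand above the other rows on the right.

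Over the 2 libraries, the levels of the 5 genes were compared with each other by the Euclidean distance of log2 input and log2 pull-down RPKM. Of the 5, Mat2a and Mrfap1 were closest to each other, at 0.52, and Ngfrap1 was 0.81 from Mrfap1. Ldha was closest to Mat2a, at 1.28. Eef2 had no near neighbour, since Ldha and Mat2a, the closest, were 5.55 and 6.35 away. With only 2 values per row, this orders levels and says nothing on shared control.

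The Ldha rows differ in where they start, so their difference gives the part covered by the longer row alone. It comprises 1293 bases, of which 1292 lie at the upstream end. Here 8 input reads and 1138 pull-down reads were counted, or 0.259 and 20.9 RPKM, a fold of 80.7 with a counting interval of 40.8 to 187. This lies above the 14.08-fold of the shorter row, whose interval ends at 14.5. The segment was singled out after its values were seen, and its 1138 reads are few beside the 143349 of the shorter row. For Ngfrap1 the part specific to the longer row is 58 bases with 6 input and 62 pull-down reads, a fold of 5.87 (2.55 to 16.6), whose interval includes the fold of the shorter row.

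Nested rows of the same gene allowed the same comparison elsewhere in the mRNA list. In all 76 nested pairs with recovered reads the longer row had at least as many reads as the shorter one in both libraries. The outer part held reads in at least 1 library for 33 pairs at 23 genes, and for 19 of these pairs it had 0 input reads, which leaves only a lower bound of the fold. The interval of the outer part lay above the fold of the inner row in 7 pairs at 6 genes, or 21.2%, with Ldha among them. It lay below in 6 pairs and covered the inner fold in 20. Ldha had the most pull-down reads of the 7 and was the pair with input reads in that part. In a pair at Pacsin3, named after its values were seen, 0 input and 313 pull-down reads gave a lower bound of 47.9 against an inner fold of 7.28. Which transcript the reads in the Ldha segment belong to was not tested.

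Promoter-associated ncRNAs, transcripts of the NONCODE catalogue that the authors placed in a window at a gene's start in their feature column, were listed at 2 of the 5 genes, Ldha and Mat2a. Among all 1509 genes 323, or 21.4%, had any listed ncRNA row at their span or under their name, a wider class than the promoter-associated rows. By this wider rule, too, 2 of the 5 genes had a row. With 5 genes, no difference between these shares was tested. Eef2, Mrfap1 and Ngfrap1 had no such row, and the nearest listed ncRNA was 50670, 102553 and 286620 bases away from them. The ncRNA tables were scaled to other read totals than the mRNA table, so RPKM values are not compared between them. Folds carry this difference in scaling too, so folds of ncRNA and mRNA rows are only roughly comparable.

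At Ldha, NONMMUT061248 covers chromosome 7 from 54101213 to 54104415, 4 to 3206 bases into the longer mRNA row and wholly inside it. It had 17.1 RPKM in the input (530 reads) and 43.5 RPKM in the pull-down (2085 reads). Its fold of 2.54 (2.22 to 2.92) was among the lowest of the 2432 promoter-associated rows, of which 98.1% had a higher one. In the mRNA table the gene as a whole had 14.17. From base 4 on, the ncRNA also covers nearly all of the 1293 bases specific to the longer row. In the mRNA counts those bases gave a fold of 80.7, from 8 input and 1138 pull-down reads. How the 530 input reads of the ncRNA divide between those bases and the rest of its span was not examined. Since the ncRNA lies within the gene and the strand setting of the counting is not given in the sources used here, its reads and those of Ldha itself cannot be told apart.

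RefSeq gives 2 start sites for Ldha, 1278 bases apart in GRCm38.p6, and the 250 bases before each are shown because the longer row, the shorter row and the ncRNA begin around 2 such sites. Lines run 5′ to 3′ along the gene, chr7:46845554-46845803 and chr7:46846832-46847081 (GRCm38.p6, plus strand), and capitals mark the E-box letters CACGTG, which occur 2 times before the first start. These positions are of another build than the mm9 coordinates of the tables.
Ldha, upstream start: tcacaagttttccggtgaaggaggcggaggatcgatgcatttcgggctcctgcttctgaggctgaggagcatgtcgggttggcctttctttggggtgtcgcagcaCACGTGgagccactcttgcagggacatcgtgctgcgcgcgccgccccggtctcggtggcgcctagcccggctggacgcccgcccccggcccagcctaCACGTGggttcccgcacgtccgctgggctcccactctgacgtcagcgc
Ldha, downstream start: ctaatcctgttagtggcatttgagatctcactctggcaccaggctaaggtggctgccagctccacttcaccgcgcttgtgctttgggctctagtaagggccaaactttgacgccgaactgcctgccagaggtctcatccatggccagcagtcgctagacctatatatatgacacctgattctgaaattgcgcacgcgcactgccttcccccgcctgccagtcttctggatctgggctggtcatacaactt

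Mat2a had 3 promoter-associated ncRNAs, and as deposited all had higher folds than the mRNA row. The longest, NONMMUT057431, spans chromosome 6 from 72388677 to 72390609 across the start of Mat2a, from -1057 to 875 bases relative to it. It had 15.5 RPKM in the input (289 reads) and 126 RPKM in the pull-down (3649 reads), a fold of 8.15 (6.90 to 9.76). NONMMUT057432, from 72388794 to 72389550, lies in the first 758 bases of the gene and had 8.08 and 126 RPKM, a fold of 15.63 (10.7 to 22.9). NONMMUT057433, from 72390093 to 72390602, lies wholly upstream, at -1050 to -541 bases, and had 8.95 and 107 RPKM, a fold of 11.97 (7.80 to 19.3). It shares no base with the mRNA row, so its reads are not those of that row. Of the bases of NONMMUT057432 and NONMMUT057431, 100% and 45.3% lie within the mRNA row. Reads there cannot be told apart from those of Mat2a itself.

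Both short ncRNAs lie inside the longest, which leaves 667 bases outside them. That remainder held 186 input and 1404 pull-down reads, a fold of 4.87 (3.92 to 6.12), below the intervals of the short rows, which overlap each other. The higher fold at Mat2a was thus measured both just inside the gene and upstream of it. By pull-down level the 3 entries ranked 23, 24 and 32 among the 2432 promoter-associated rows. By fold 16.3%, 22.2% and 30.6% of those rows were higher than NONMMUT057432, NONMMUT057433 and NONMMUT057431. No row was assigned to Particl, because the files name these transcripts by identifier and by Mat2a only.

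**Figure D4:**
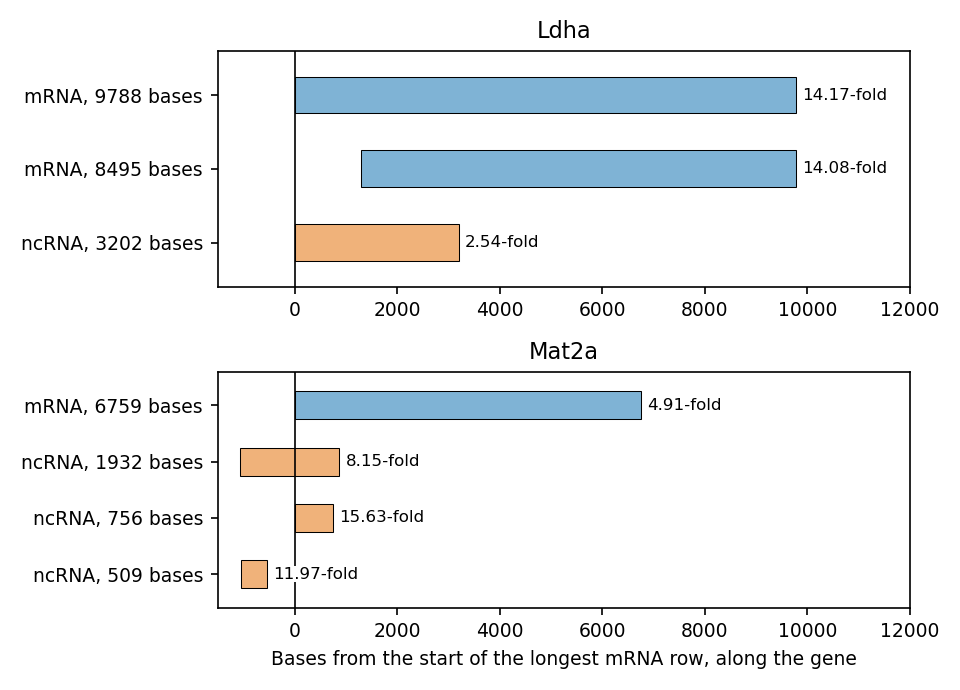
Bars show the deposited rows at Ldha and Mat2a, mRNA in blue and ncRNA in orange, placed by their distance in bases from the start of the longest mRNA row, with the authors' fold beside each. The Ldha ncRNA lies inside the gene at 2.54-fold, while the Mat2a ncRNAs surround the gene's start at 8.15-, 15.63- and 11.97-fold.

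The bases before the Mat2a start are shown because the longest of its enriched ncRNAs spans that start. The line gives chr6:72439557-72439806 (GRCm38.p6, minus strand) along the gene, with the TATA-box letters TATAAA in capitals.
Mat2a: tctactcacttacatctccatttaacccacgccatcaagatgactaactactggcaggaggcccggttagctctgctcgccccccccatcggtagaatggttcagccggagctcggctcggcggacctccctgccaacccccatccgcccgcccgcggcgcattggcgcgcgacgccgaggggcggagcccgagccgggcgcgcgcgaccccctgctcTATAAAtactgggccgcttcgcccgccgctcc

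The complement of the let-7d-5p seed, CTACCTC, was searched on both strands in the 250 bases before each start. It was in 0 of the 6 promoters of the 5 genes, and 3.23% of all 32851 RefSeq promoters held it. The seed of the 3p arm was not searched. The letters CACGTG, which read the same on both strands, were in 2 of the 6, at Ldha and Eef2, against 6.02% of all promoters. TATAAA, searched only along the gene, was in 2 of the 6, at Mat2a and Eef2, against 7.59%. None of these shares was compared by a test, and 6 promoters are few. A match is only a run of letters, and transcript sequences were not used here, so target sites within the mRNAs were not examined.

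No ChIRP-seq peak was annotated to any of the 5 genes, and 211 of the 1509 listed genes, or 14%, were the nearest gene of at least 1 peak. Whether these shares differ was not tested, and 5 genes are few. The closest peak to Mat2a was 70.1 kb away, in an intron of Rnf181, with the authors' peak score of 63.3 and a distance of 197 bases to that gene's start. The closest to Eef2 was 188 kb away at Gng7 (38.0) and that to Ldha 427 kb away at Kcnc1 (32.5). The closest to Ngfrap1 was 3495 kb away near Ripply1 (35.1). Peaks were listed from a score of 30.01, so weaker signal at these genes would not appear.

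Genes that work with the 5 were looked up in the same lists. As background, of 21900 protein-coding genes in RefSeq 6.87% were in the mRNA list, 6.30% in the promoter-associated ncRNA list and 12.7% nearest to a peak. No count below was tested against these shares. Of 23 genes of glycolysis and lactate transport other than Ldha, 0 were listed as mRNA and 3 had a promoter-associated ncRNA. Those were Gapdh, the glycolytic dehydrogenase, at 3.71-fold (12.5 to 46.4 RPKM), and the aldolase genes Aldoc, at 4.48 and 2.82, and Aldoa, at 3.35. ChIRP-seq peaks were nearest to 3 of the 23, namely the lactate transporter gene Slc16a1 with 3 peaks of 31.6 to 41.7, Tpi1 with 37.0 at 1919 bases from its start, and Gapdh with 35.7 at 673 bases. The median fold of the 4 ncRNA rows was 3.53, against 5.13 for all promoter-associated rows.

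Translation elongation and the diphthamide modification that Eef2 carries gave 0 of 16 genes in the mRNA list and 2 with a promoter-associated ncRNA. Dph5, a methyltransferase of diphthamide synthesis, had 4 such rows, 3 at 2.86-fold and 1 at 14.64 from an input of 0.076 RPKM. Eef1g, a subunit of elongation factor 1, had 2.59, computed by the authors on an input of exactly 1 RPKM. Eef1d was nearest to a peak of 34.4. Of the 17 genes of the methionine cycle around Mat2a, 0 were listed as mRNA or promoter ncRNA, and Gnmt, a methyltransferase that uses S-adenosylmethionine, was nearest to a peak of 34.2.

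Among 17 partners of Mrfap1 in the MORF4 and NuA4 chromatin complexes, 0 were in the mRNA list. Morf4l2, a MORF4-like gene, had a promoter-associated ncRNA at 3.37-fold (8.56 to 28.8 RPKM), Actl6a one at 12.9 on an input of exactly 1 RPKM, and the acetyltransferase gene Kat5 a peak of 41.5 at -5704 bases from its start. Of 16 Bex, Tceal and p75 pathway genes, 1 was listed, Ngfr, the p75 receptor itself, with 0.002 RPKM in the input, 0.039 in the pull-down and a fold of 19.5 on an input near the last decimal given. Of 16 other abundant mRNAs such as Actb, Tpt1 and Hspa8, 0 were in the mRNA list and 2 were nearest to a peak. A promoter-associated ncRNA was listed at 3 of them, Ybx1, Ppia and Fth1. Their folds were 3.26, 2.76 and 6.36, the last on an input of exactly 1 RPKM. A gene outside the list may have had a lower fold or failed another filter, and which of these holds was not tested.

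The mRNA list does not serve to check the identity of the cells, because it holds enriched entries only. Peaks of all marker genes were assigned by nearest gene, at any distance. Of 12 lung epithelial markers 0 were listed as mRNA and 5 were nearest to a ChIRP-seq peak. Among them were Sftpb, Nkx2-1 and Foxa2, whose closest peaks lay at -255, -869 and -139414 bases from their starts. Fibroblast markers gave 2 of 5 in the mRNA list (Pdgfrb, Col1a2) and 1 with peaks (Col1a1). Endothelial markers gave 2 of 4 (Tek, Kdr) and 1 with peaks (Pecam1, with scores of 47.9 and 40.7). Leukocyte markers gave 1 of 4 (Mrc1) and 0 with a peak, and Cd68 had promoter-associated ncRNAs at 24.46- and 21.98-fold on inputs of exactly 1 RPKM. The input levels of the 5 listed marker mRNAs, 0.001 to 0.005 RPKM, were far below the 24.2 to 778 RPKM of the 5 genes.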

How the data were processed

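Input and pull-down values are RPKM as the authors deposited them, per the file headers, per kilobase of span with introns, and the fold is the authors' ratio of both. Per the submitters' processing notes, the pull-down reads went through bedtools 2.15, Picard 1.119, Bowtie2, HOMER, Trimmomatic, SAMtools and FastQC in an order not stated, and the ChIRP-seq reads through Bowtie2, MACS and HOMER among others, with genome mm9. Peak scores are those the authors deposited. Whether PCR copies were removed, and the strand setting, are not given in the sources used here.

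RPKM times span fell on whole multiples of 1 read, within 0.25 reads for 100% of the values with enough decimals, at depths in units of 1e6 reads of 23.9 (input) and 42.0 (pull-down) for mRNAs, and of 9.66 and 14.97 for ncRNAs. Of the ncRNA input numbers 79.6% were even, so ncRNA reads were halved to pairs for intervals. Fold intervals are exact (Clopper-Pearson on the pull-down's part of both read numbers, 95%), levels exact Poisson, computed with Python 3.11.15 and scipy 1.17.1. Recovery of reads and fold intervals were run on simulated data, and level intervals and halved reads were not. With 1 library per group no test was made. The named genes were the 5 genes, rows next to the limit of 70 RPKM and listed members of the gene lists. Levels of the 5 genes were compared with each other. Results that need certain other listed genes are not reported here. Overlap meant at least 1 shared base. Members and lists were chosen with earlier results of these data known. Of the 5 gene names, 5 matched RefSeq, and columns of other samples numbered 0.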

Additional observations from a re-analysis of the deposited data

How the results depend on the processing

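A pseudocount of 1 RPKM lowered the Ldha folds to 13.6 and 13.7. Relative to the median fold of listed rows with an input of at least 1 RPKM, the folds were 4.69 and 4.72 for Ldha, 1.23 for Eef2, 1.64 for Mat2a, 1.00 for each Ngfrap1 row and 0.99 for Mrfap1. The Mrfap1 fold of 2.97 thus lay just below that median of 3.0. Without rows whose input is exactly 1 RPKM, an alternative chosen after seeing the data, the relative folds were, in the same order, 4.70 and 4.73, 1.23, 1.64, 1.00 and 1.01, and 0.99. With peaks counted within 100 kb of the mRNA, 1 of the 5 genes, Mat2a, had a peak. The other alternatives, recovered reads, a pseudocount of 0.1 RPKM, rounding, other RPKM limits, other overlap rules, peaks within 10 kb and peaks of at least 40, left each fold within its counting interval and the counts at 5 or 6 abundant genes, 2 genes with an ncRNA and 0 with a peak. Levels per spliced length were not run because the reference tables give no transcript lengths. Leaving out a replicate was not possible with 1 library per group. Counting error is small for the mRNA rows, where the absence of replicates and of a control capture sets the limit. It is wide for the outer parts of Ldha and Ngfrap1, with 8 and 6 input reads, and for the short Mat2a ncRNAs, with 59 and 44.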
